A study of Canis lupus familiaris with 62 samples.

Results

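The dog leukocyte antigen region, the major histocompatibility complex (MHC) of the dog, lies at the start of chromosome 12. It was described here in RNA of 62 meningiomas of dogs. Meningiomas are tumours that grow from the meninges. The members are all genes of the count file on chromosome 12 that start below base 2700000 of CanFam3.1, span less than 500 kb and have more than 250 bases of exon. This rule uses position and gene model only and takes 114 of the 30951 genes of the file. Of 128 genes that start in the region, 14 were left out, each because it has 250 bases of exon or less. Members are numbered 1 to 114 in the order of their starts. The first starts at base 97483 and the last ends at base 2712831.

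Each library comes from 1 dog with a spontaneous tumour, archived in formalin and paraffin between 2011 and 2022. The dogs carry 27 breed labels, mixed breed included. The labels give 27 dogs as untreated, 7 as given a steroid (6 of them with an anti-epileptic drug), 3 as given an anti-epileptic only and 3 as given radiotherapy only (RT). A further 13 dogs had surgery (Sx) and 9 had surgery and radiotherapy (SxRT), where Sx and RT were read as surgery and radiotherapy, and dogs labelled as lost to follow-up were kept in their treatment group. These 22 dogs are called surgical below. All tumours are spontaneous, no cell line or transgene is involved, and no group of normal meninges was used here. Specimens were biopsies or post-mortem tissue, and the labels do not say which for a given dog. Surgical and untreated dogs may therefore also differ in specimen type, which could not be tested.

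The MHC encodes proteins of antigen presentation. Class I molecules sit on most nucleated cells and show peptides made inside the cell to cytotoxic T cells. Class II molecules are carried mainly by macrophages, dendritic cells and B cells and show peptides taken up from outside to helper T cells. Between them lies a stretch, called class III, with genes of complement and of inflammatory cytokines and many genes with no immune function. Class I and class II genes are polymorphic between individuals and occur as similar copies, which affects how reads are assigned. CanFam3.1 was built from a Boxer, so the reference carries the alleles of 1 dog.

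The file does not pair its identifiers with gene names, and the name table at hand, of another assembly, matched 0 of them. Which member is a class I, II or III gene was therefore not assigned, the lists of MHC genes and of cell type markers that had been drawn up were not analysed, and no sequences are given. The label of the region rests on position alone and could not be checked against marker genes. In bulk tissue, fewer cells of a type and less RNA per cell cannot be told apart, which holds for every difference below.

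Libraries held 1967061 to 12063982 counts (median 4190135), and the members took 0.487% to 1.16% of the counts outside the mitochondrial genome (median 0.824%). Both reads of a pair were counted, so most low counts are even. Among counts up to 20, even values made up 79.3% to 95.3% (the even share). This share was below the untreated median in 21 of 22 surgical libraries, and so was the first principal component of all genes. Sample names begin with N or S, which the labels do not explain, and all 21 S-named dogs are surgical. The 1 surgical dog with an N name is Sx replicate 1. Libraries of different dogs were taken as replicates of a group.

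The gene models are dense and unevenly spread. Of the 114 members, 54 lie on the forward and 60 on the reverse strand, the median member has 7 exon blocks and 1561 bases of exon, and the longest has 12274 bases. In 26 members some exon bases are shared with another gene, in 18 of these only with a gene on the opposite strand, and in 10 the shared part exceeds 10% of the exon length. Counting ignored strand, so reads from such bases cannot be assigned to 1 strand. Split into 9 windows of 300 kb by start, windows 4 and 5 (bases 900000 to 1500000) hold 23 members each, while window 1 holds 3 and window 7 (1800000 to 2100000) holds 4.

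RNA was found along most of the region, and least in 2 stretches. Of the members, 92 passed the filter on low counts (80.7%, against 59.4% of all genes), 64 were counted in every library and 2 (members 27 and 92) had 0 counts in all 62. The quiet stretches are window 7, where 0 of 4 members passed and all 4 together had 321 counts, and the middle of window 3, where members 24 to 28 had at most 107 counts each over the 62 libraries. In window 2, by contrast, 17 of 17 members passed. Levels are given per length, as CPM (counts scaled to library size) per kb of exon.

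**Figure D1:**
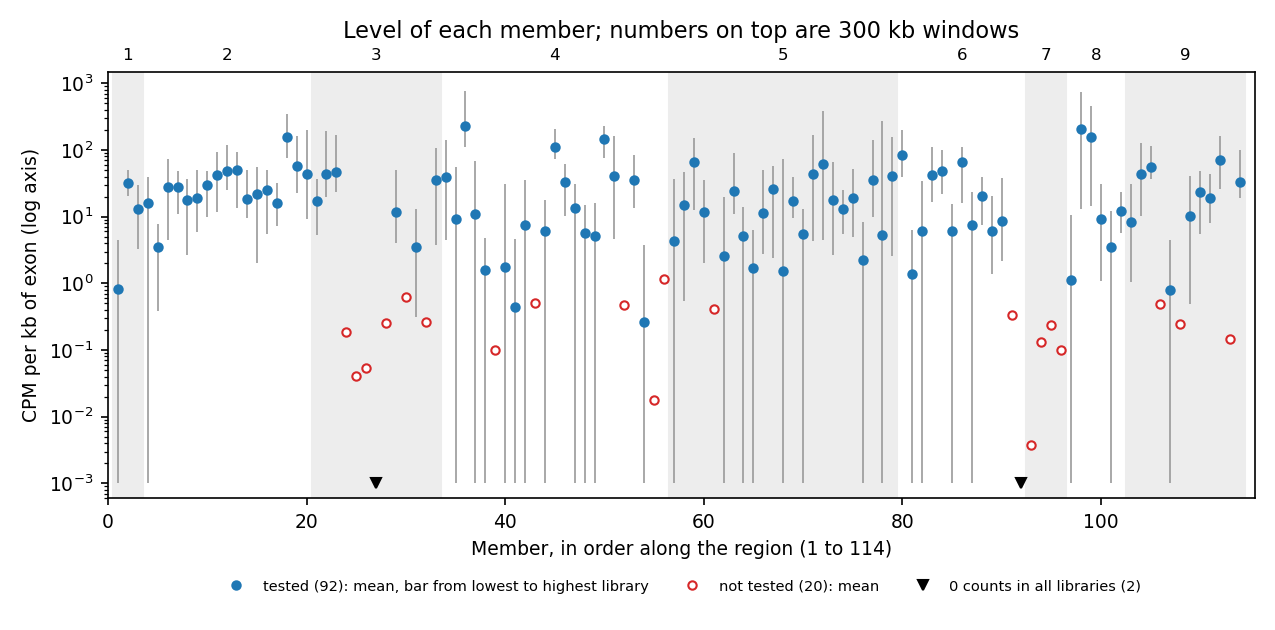
Mean level of each of the 114 members in CPM per kb of exon (log axis) against its order along the region, with bars from the lowest to the highest library for tested members; bars that reach 0.001 mark members at 0 in at least 1 library. The 6 members over 100 CPM per kb lie in windows 2, 4 and 8, and window 7 has no tested member.

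The 6 members over 100 CPM per kb lie in 3 windows. Member 36 (ENSCAFG00000000509, bases 1032368 to 1044492, reverse strand) had 229 ± 91.1 CPM per kb (mean ± SD, n = 62). Next came member 98 (ENSCAFG00000000803, 2132499 to 2168975, forward) with 207 ± 133 CPM per kb. Member 18 (ENSCAFG00000000443, 512767 to 516144, forward) had 158 ± 64.3 and member 99 (ENSCAFG00000000812, 2221137 to 2227600, forward) 154 ± 101 CPM per kb. Member 50 (ENSCAFG00000000604, 1149548 to 1154418, forward) had 145 ± 37.9 and member 45 (1112614 to 1125443, forward) 111 ± 24.3 CPM per kb. Neighbours in this order differ by less than 1 SD over dogs of the higher member, and whether their means differ was not tested. At the other end, 25 members were under 1 CPM per kb.

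The highest members of each remaining window with tested members show the upper end of its levels. In window 1 these were member 2 (ENSCAFG00000000380, 195726 to 240516) at 32.05 ± 5.79 CPM per kb and member 3 (ENSCAFG00000000386, 242714 to 255305) at 12.8 ± 6.08. Window 3 was led by member 23 (ENSCAFG00000000454, 680484 to 693913) at 46.4 CPM per kb (23.7 to 166 over libraries) and member 22 (ENSCAFG00000032081, 675983 to 681425) at 43.7 ± 23.3 CPM per kb, which overlap on the same strand and share 20.1% of the exon bases of member 22. In window 5 member 59 (ENSCAFG00000000621, 1209780 to 1215229) had 65.3 ± 30.2 CPM per kb and member 72 (ENSCAFG00000041232, 1400172 to 1550190) 61.3 ± 83.0, an SD above its mean. Windows 6 and 9 were led by member 80 (ENSCAFG00000000761, 1515503 to 1525110) at 83.7 ± 27.0 and member 112 (ENSCAFG00000000933, 2671578 to 2675488) at 69.6 ± 25.3 CPM per kb. The medians over all members of a window were 12.8 CPM per kb in window 1, 0.63 in window 3 and 13.2 in window 5. They were 7.39 in window 6 and 14.6 in window 9.

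From dog to dog the tested members varied less than the file as a whole. The median SD of log2 CPM over the 62 libraries was 0.77 for members and 1.00 for all 18370 tested genes. Members were also counted more deeply, with a median mean log2 CPM of 5.21 against 3.37. Among genes whose mean log2 CPM reached 2, the median SD was 0.65 for 75 members and 0.75 for 11963 genes.

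Of the members at that depth, numbers 37, 82 and 79 had the 3 largest SDs. Member 37 (ENSCAFG00000000513, 1046732 to 1050103, reverse strand, 4 exon blocks) had an SD of 2.16 on the log2 scale and ran from 0 CPM in 4 libraries to 85.2 CPM, with a median of 3.25 CPM. Member 82 (ENSCAFG00000000764, 1542789 to 1548964, reverse strand) had the same SD of 2.16 and ran from 0 CPM in 1 library to 159 CPM, with a median of 7.10 CPM. Both are low in most dogs and high in a few. Member 79 (ENSCAFG00000000751, 1453260 to 1509749, reverse strand, 41 exon blocks) had an SD of 1.43 but was counted in every library, from 32.003 to 1912 CPM with a median of 454 CPM. Of the exon bases of member 37, 17.02% are shared with member 38 on the other strand.

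In a few other members, 1 dog held most of the signal. Member 78 (1450677 to 1453734) had 82.9% of its summed CPM in untreated replicate 22, and member 68 (1328399 to 1340778) had 75.1% of it in untreated replicate 12. Over 50% of the CPM fell in 1 library for 2 of 92 tested members (2.17%), against 1.09% of all tested genes. Over 20% did so for 4 members (4.35%), against 9.06% of all tested genes, and the median share in the top library was 4.78% for members and 5.97% for all. Members 78 and 68 were singled out for that pattern, after their values were seen.

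Members varied together over the libraries slightly more than other genes on the same chromosome, and less clearly so once the first principal component was taken out. Over 4186 pairs of tested members the median Pearson correlation of log2 CPM was 0.122 (n = 62 libraries), and over 573173 pairs of genes less than 2700 kb apart on the same chromosome it was 0.060. For pairs under 100 kb apart these medians were 0.168 and 0.137. With the first principal component taken out, they were 0.127 and 0.129 for pairs under 100 kb apart, 0.083 and 0.078 for 100 to 500 kb, and 0.076 and 0.055 beyond. All points share library, depth and tissue makeup, so these are descriptions.

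**Figure D2:**
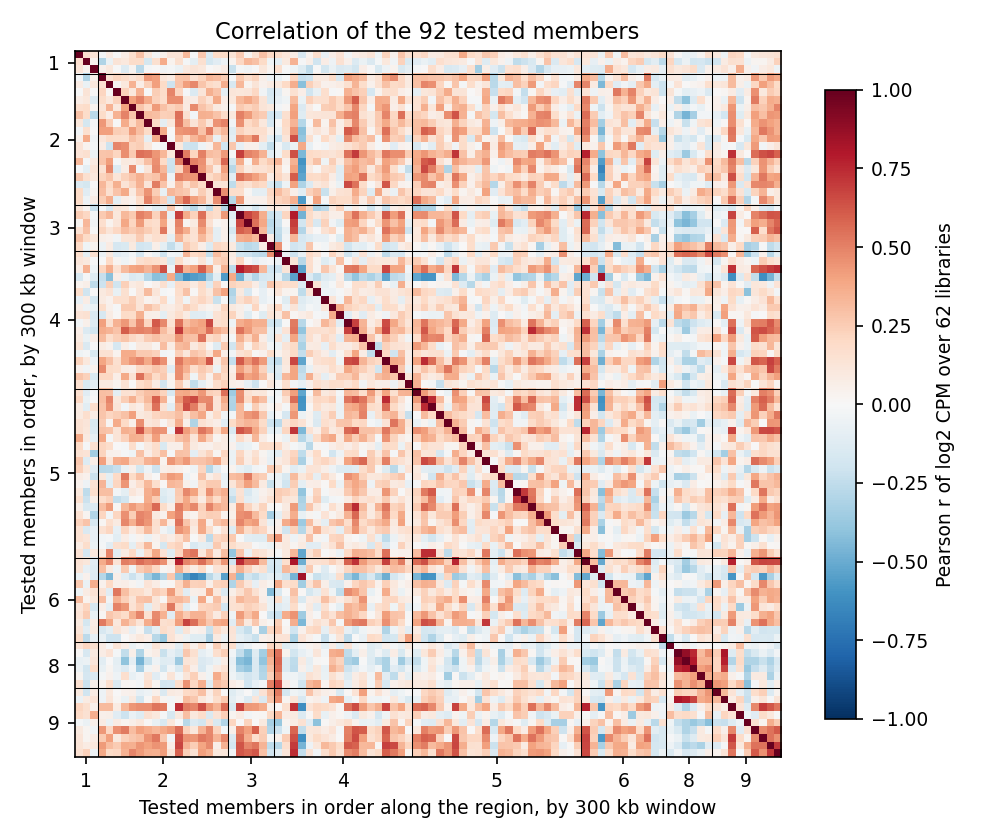
Pearson correlation of log2 CPM over 62 libraries for each pair of the 92 tested members, in order along the region, with lines between the 300 kb windows. The block of high values in window 8 and the start of window 9, and the negative stripes of members 37 and 82, depart from the weak positive background of 0.122. Some pairs of members in other windows also reach high values.

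A closely correlated group lies at the distal end. Members 98, 99, 100 (2244820 to 2251662, reverse strand) and 104 (2503325 to 2533990, reverse strand) had pairwise correlations of 0.68 to 0.88, spread over 371 kb between the first and last start. The strongest was 0.88, between members 98 and 99, and it was 0.90 with the first component taken out. Toward the other tested members the medians of these 4 ran from -0.10 to 0.06. Correlation within window 8 had a median of 0.35, while that of its members with all other windows was -0.01. The 4 members are called the distal group below and were picked after the correlations were seen. None of the 4 shares exon bases with another gene of the file, and how reads were placed between similar copies elsewhere in the genome was not tested. Close correlation was not particular to the distal end. Members 22, 36, 80 and 105, with starts from 675983 to 2534034, had pairwise correlations of 0.67 to 0.81. They too were picked after the correlations were seen.

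A second pair lies far apart. Members 37 and 82, with 496 kb between their starts, had a correlation of 0.84, and this was 0.25 with the first component taken out. Member 37 was negatively correlated with 76 of the other tested members, down to -0.62 with member 105 (ENSCAFG00000000871, 2534034 to 2546029), and member 82 with 77, down to -0.66 with member 16 (490298 to 493145). Their correlations with the first component were 0.89 and 0.88. The 6 libraries past the widest gap on that component had 4.88 to 6.42 log2 CPM of member 37 (median 6.41) and the other libraries -1.16 to 5.79 (median 1.51). In those other libraries the pair still had a correlation of 0.76.

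Surgery against untreated was the contrast with the most calls in the file, and in the region more members were higher than lower in surgical dogs. Of 92 tested members 14 were higher in surgical dogs (15.2%) and 4 were lower (4.35%), at an adjusted p under 0.05 of edgeR's quasi-likelihood test. Over all genes tested, 6.37% were called higher and 10.4% lower. The median log2 fold change was 0.22 for the members and -0.02 for all genes, and 69 of 92 members had a positive sign against 48.7% of all genes. Calls came from 7 of the 8 windows with tested members, with 5 higher members in window 2 and 3 in window 9. No member separated the groups without overlap, and the share of all genes that did so is not given here.

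**Figure D3:**
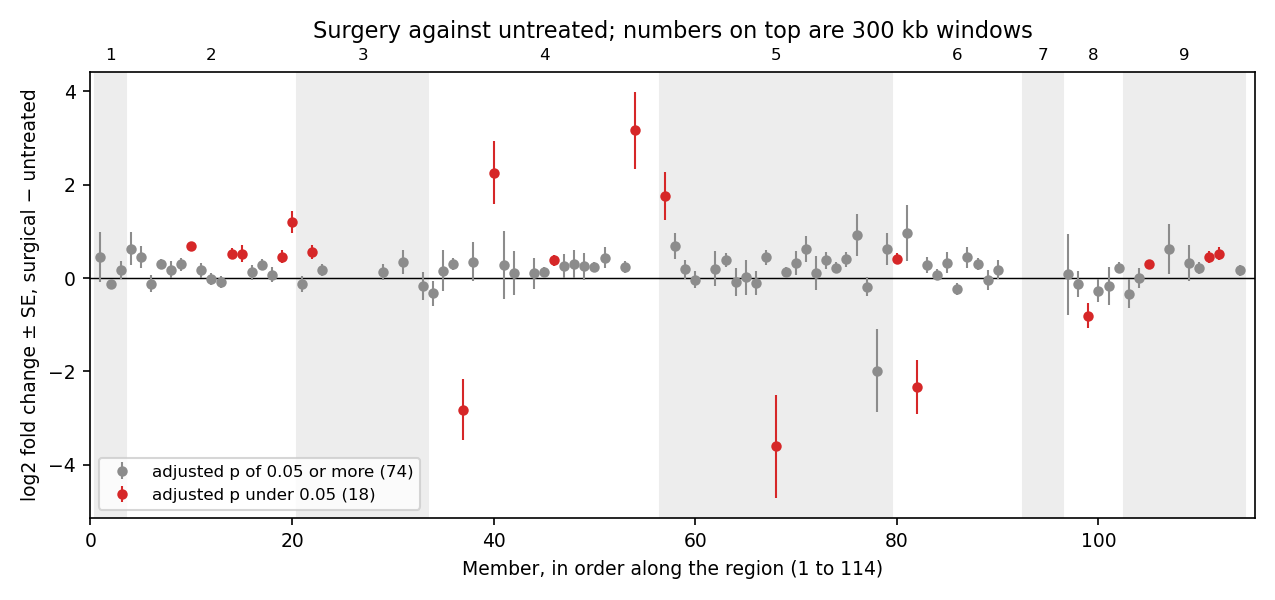
Log2 fold change of surgical against untreated dogs with its SE for the 92 tested members, against order along the region; red marks the 18 with an adjusted p under 0.05. Most members sit slightly above 0, and 4 of the 18 lie below it.

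Of the 14 members higher in surgical dogs, 10 differed by 0.29 to 0.68 on the log2 scale and 4 (members 20, 40, 54 and 57) by 1.21 to 3.16. Member 10 (417680 to 427799) had 28.4, 69.9 and 104 CPM as lowest, median and highest of 27 untreated libraries, and 69.7, 111 and 139 CPM in 22 surgical ones. Of the surgical libraries, 21 lay above the untreated median. The difference was 0.68 ± 0.104 on the log2 scale (SE), with an edgeR adjusted p of 2.51e-05. Member 10 is shown because it had the smallest adjusted p of the region, seen after the fit.

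Member 20 (ENSCAFG00000000447, 529339 to 530232, 2 exon blocks) had the largest increase among called members whose mean log2 CPM reached 2. Its lowest, median and highest values were 7.60, 22.4 and 97.3 CPM in untreated and 12.6, 46.2 and 160 CPM in surgical dogs. The groups overlapped, with 20 of 22 surgical libraries above the untreated median. Its log2 fold change was 1.21 ± 0.232 (edgeR adjusted p 0.000343), and the medians were 54.6 CPM in Sx and 37.7 CPM in SxRT. Member 57 (ENSCAFG00000000615, 1202721 to 1204655) had 0, 1.42 and 7.34 CPM in untreated and 0.368, 5.27 and 33.03 CPM in surgical dogs. It was higher by 1.76 ± 0.522 (adjusted p 0.0143) at low counts, and the adjusted p passed 0.05 when SxRT replicate 5 was left out.

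Members 14, 15, 19 and 22, close to members 10 and 20, were also higher, by 0.46 to 0.56 on the log2 scale. The call of member 15 was lost in 25 of 49 fits that each left out 1 library, and that of member 19 without Sx replicate 12. Further along, members 46, 80, 105, 111 and 112 were higher by 0.29 to 0.52. In member 80, a member of high level, the medians were 158 CPM untreated and 208 CPM surgical, with 21 of 22 surgical libraries above the untreated median. Members 40 (1074552 to 1076425) and 54 (1182469 to 1188662) were called higher at low counts, by 2.25 ± 0.674 and 3.16 ± 0.826 (edgeR adjusted p 0.0152 and 0.0057), with 23 and 46 of 62 libraries at 0.

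The 4 lower members include the most variable pair of the region. Member 37 had 0, 3.44 and 85.2 CPM as lowest, median and highest in untreated dogs and 0, 1.27 and 12.1 CPM in surgical dogs. Only 6 of 22 surgical libraries lay above the untreated median, while the untreated values ran far above all of them. Its log2 fold change was -2.82 ± 0.644 (edgeR adjusted p 0.00188). Member 82 had 0.541, 12.02 and 143 CPM in untreated and 0, 4.09 and 35.3 CPM in surgical dogs, and 2 of 22 surgical libraries lay above the untreated median. It was lower by -2.33 ± 0.579 on the log2 scale (adjusted p 0.00368). This call was lost with limma voom (-1.75, adjusted p 0.0605) and without 12 libraries, 0 of them surgical, at 1 end of the first component (-1.30, adjusted p 0.0932), while that of member 37 held in both (-1.80 and -1.68, adjusted p 0.0439 and 0.046).

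Member 99 of the distal group was lower too. Untreated dogs had 115, 347 and 905 CPM as lowest, median and highest, and surgical dogs 75.5, 186 and 665 CPM. The difference was -0.81 ± 0.275 (edgeR adjusted p 0.0345), with 4 of 22 surgical libraries above the untreated median, and the call was lost in 5 of 49 fits without 1 library, namely SxRT replicates 3, 5 and 6 and untreated replicates 17 and 20. The other members of the group had log2 fold changes of -0.12 (member 98), -0.27 (member 100) and -0.01 (member 104), and adjusted p of 0.491 to 0.991. Member 68 was called lower at -3.60 ± 1.10, but 47 of 62 libraries were at 0, and without untreated replicate 12 the value was 0.30.

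**Figure D4:**
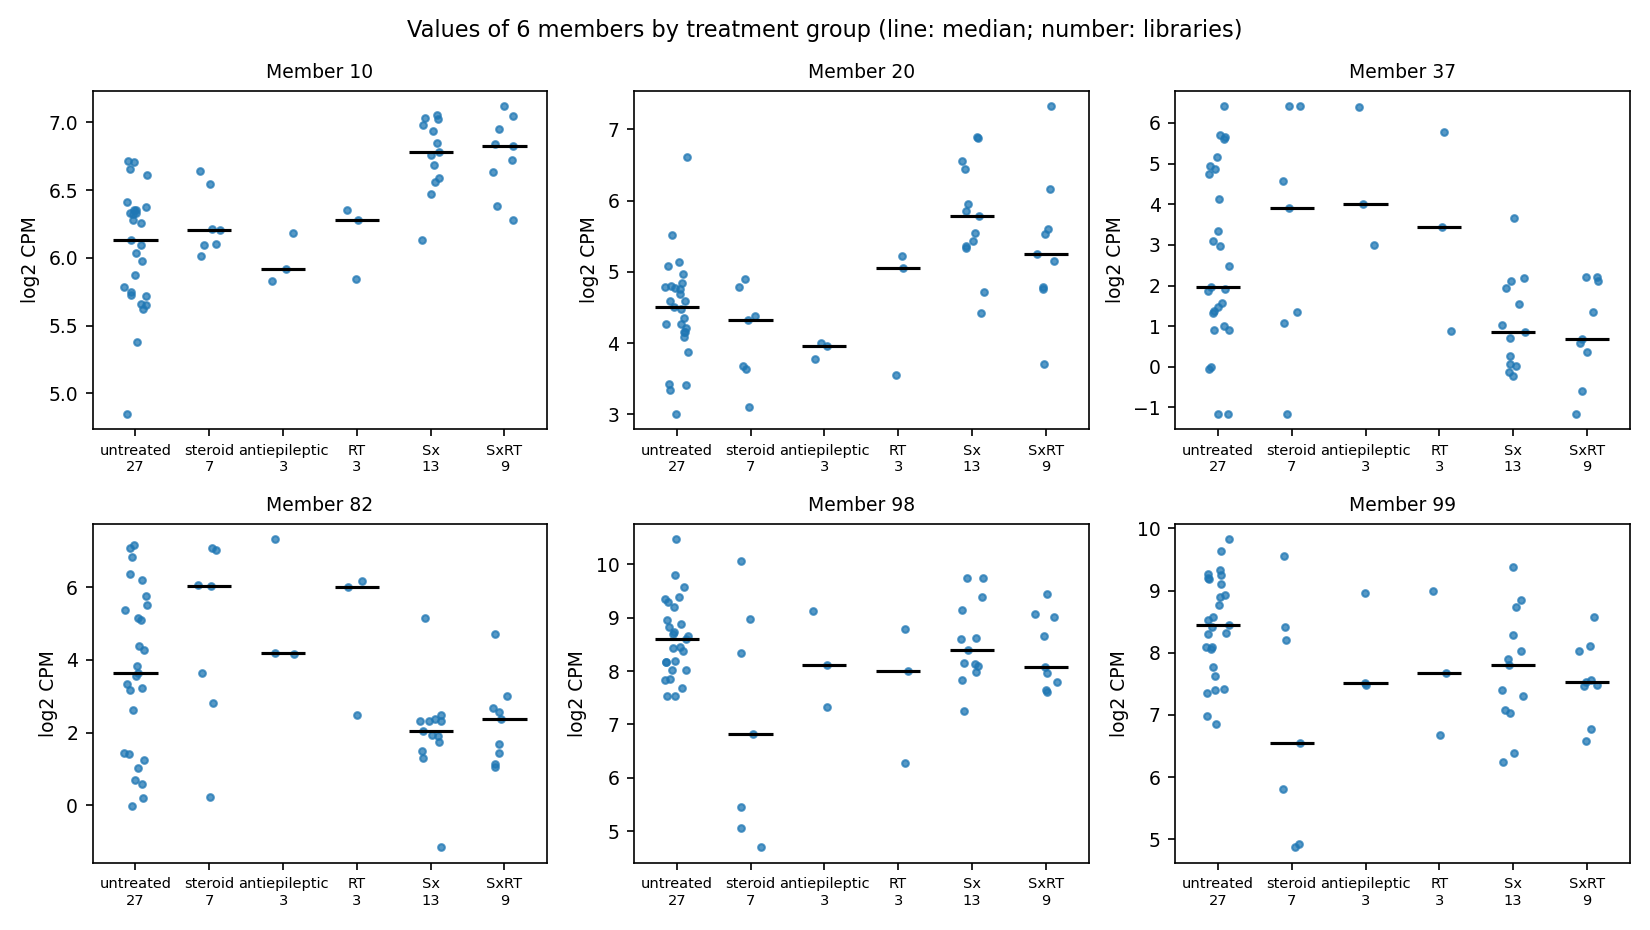
Log2 CPM of members 10, 20, 37, 82, 98 and 99 in each library, by treatment group, with the group median as a line. Members 10 and 20 sit higher in Sx and SxRT, members 37 and 82 reach high values in some dogs of the 4 other groups, and members 98 and 99 have 4 low steroid libraries.

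Library measures moved with the surgical label and with these members. The share of even values correlated negatively with 80 of 92 tested members, and the same count over all genes is not given here. It did so with 14 of 14 that were called higher. Surgical libraries mostly had a lower share, so choosing members that are higher in them favours this sign. With this share as a covariate, 5 of the 18 calls stayed (members 10, 14, 57 and 20 higher, member 68 lower) and no other member was called, which is 5.43% of members where 4% of all genes were called in that fit and 16.8% without the covariate. With the first component as a covariate, 3 stayed (3.26%, against 1.56% of all genes), and members 37 and 82 changed sign to 0.52 and 0.33. Within dogs whose names are numbered 11 to 16, 0 of 91 members and 0% of all genes were called, with 8.79% of members and 13.1% of all genes at an unadjusted p under 0.05. Within 17 to 22, members 19 and 20 were called of 98 tested, against 0.364% of all genes. The counts over all genes thus fell in the same fits. Without Sx replicate 1, the surgical dog with an N name, 20 members (21.7%) and 19.3% of all genes were called. The part of these measures in the differences was not tested, and sample letter and surgery cannot be told apart. Specimen type, biopsy or post-mortem, is not given per dog, so it cannot be told apart from surgery either.

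The mean deviation of the 92 tested members was taken as a score per library. The lowest, median and highest score were -0.67, -0.05 and 0.30 in untreated dogs and -0.13, 0.15 and 0.62 in surgical dogs, with medians of 0.17 in Sx and 0.15 in SxRT. Of the surgical libraries, 21 of 22 lay above the untreated median. The RT libraries had -0.40, -0.11 and -0.10, the anti-epileptic ones -0.44, -0.23 and 0.10, and the 7 steroid libraries ran from -0.40 to 0.29. These last groups lay within the untreated range.

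By window, the surgical and untreated medians of the same score were 0.20 and -0.11 in window 2, 0.19 and -0.10 in window 4 and 0.22 and -0.09 in window 5. Toward the distal end they were 0.06 and 0.02 in window 6 and 0.18 and -0.06 in window 9. Window 8, which holds 3 members of the distal group, had the reverse order, with -0.03 in surgical and 0.08 in untreated dogs. Its untreated range, -0.65 to 1.30, covered most of the surgical range of -1.06 to 0.98. Window 1, with 3 tested members, had 0.18 and 0.02, and window 3, with 6, had 0.08 and -0.02. The ranges of the surgical and untreated libraries overlapped in each of the 8 windows with tested members.

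**Figure D5:**
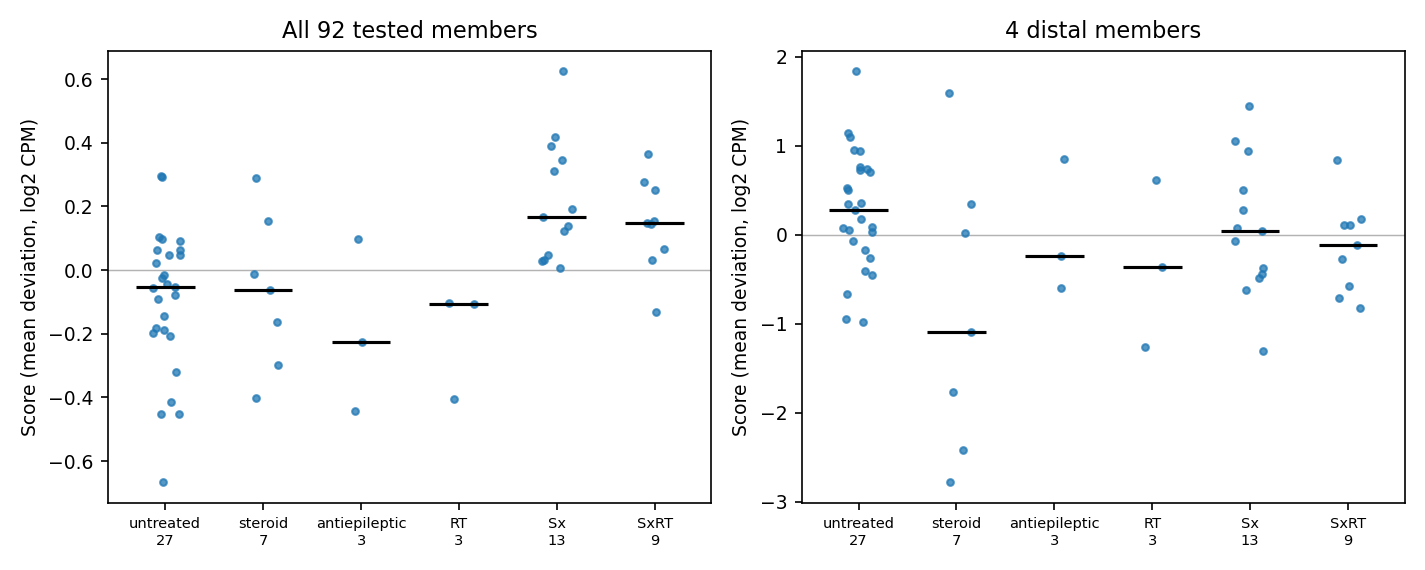
Mean deviation of log2 CPM from each gene's mean over 62 libraries, per library and treatment group, for the 92 tested members and for the 4 members of the distal group; lines are medians. The surgical groups sit above the untreated median for the whole region, and 4 of 7 steroid libraries lie below the lowest untreated value of -0.98 for the distal group. Sx replicate 3 and RT replicate 1 lie below that value too.

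In steroid-treated dogs the distal group was split. Member 98 had 70, 144, 221, 470, 1437, 1821 and 6259 counts in the 7 steroid libraries, or 25.5, 43.4, 32.9, 112, 325, 504 and 1072 CPM in the same order. The untreated libraries ran from 184 to 1414 CPM, with a median of 387 CPM. Thus 4 steroid libraries lay below every untreated one and 3 within the untreated range. Member 99 had 28.8, 29.9, 55.4, 93.3, 295, 340 and 752 CPM in steroid dogs and at least 115 CPM in every untreated dog. The same 4 libraries were low in both.

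For the distal group as a whole, the score of the steroid libraries was -2.78, -2.42, -1.76, -1.10, 0.02, 0.34 and 1.59, and that of the untreated dogs -0.98, 0.28 and 1.84 as lowest, median and highest. The 3 lowest scores of all 62 libraries were in steroid-treated dogs. Next came Sx replicate 3 (-1.31) and RT replicate 1 (-1.26), also below every untreated dog, so such low scores were not limited to steroid dogs. The 4 low steroid libraries had 15.5% to 46.7% of counts from the mitochondrial genome and the other 3 had 12.9% to 14.6%. The part of this in the scores was not tested. The dog labelled with a steroid and no anti-epileptic had the highest score of the 7.

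By the test, none of this passed. Log2 fold changes of steroid against untreated were -0.81 ± 0.435 for member 98, -1.03 ± 0.432 for member 99, -0.66 ± 0.372 for member 100 and -0.54 ± 0.333 for member 104 (SE), with edgeR adjusted p of 0.341 to 0.567. Without steroid replicate 4, the library with the highest level of member 98, these were -1.57, -1.69, -1.41 and -0.93, with adjusted p of 0.0644 to 0.248. That library was picked by its value, and the values without each low library are not given here. In each of 15 alternative fits, those without each steroid library included, the 4 differences stayed negative and were not called. In the region 0 of 92 members were called, where 0.256% of all genes were called higher and 0% lower, and 18 (19.6%, against 11.0% of all genes) had an unadjusted p under 0.05, 13 of them positive. Without steroid replicate 5 this count was 3 (3.26%, against 6.74% of all genes), and the median log2 fold change of the members was -0.02 instead of 0.12. With DESeq2, which called 0.844% of all genes, member 14 was called higher (0.61, adjusted p 0.0318) and member 72 lower (-1.78, adjusted p 0.0454), and with limma voom, which called 3.52% of them, member 21 was called higher (0.73, adjusted p 0.0496). Without the filter on low counts edgeR called 1 member, also higher, and 0.578% of all genes. Member 72 had 43.7, 66.3 and 112 CPM as lowest, median and highest in steroid dogs and 28.8, 135 and 1290 CPM in untreated dogs. Members 14, 72 and 21 are named because another tool called them.

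The other treatment contrasts gave no call in the region. For SxRT against Sx 0 of 92 members were called (0.0109% of all genes). An unadjusted p under 0.05 was reached by 6 (6.52%, against 5.11% of all genes). The median log2 fold change was -0.15 for members and -0.04 for all genes. For RT against untreated 0 members were called (0.425% of all genes were called higher and 0.0109% lower). An unadjusted p under 0.05 was reached by 5 (5.43%, against 7.85% of all genes). For the anti-epileptic 0 were called (0.00544% of all genes), with 4 (4.35%, against 4.61% of all genes) at an unadjusted p under 0.05. With 3 dogs a group, the median SE of the 75 deeper members was 0.40 for RT and 0.38 for the anti-epileptic, against 0.18 for surgery. DESeq2 and limma voom called 0 members in these 3 contrasts. DESeq2 called 0.212% of all genes for SxRT, 0.305% for RT and 0.191% for the anti-epileptic, and limma voom 0%, 0.12% and 0%.

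In the distal group, the RT libraries had 76.9, 257 and 441 CPM of member 98 and the anti-epileptic ones 160, 276 and 558 CPM. RT replicate 1 was below the untreated minimum of 184 CPM, and so was anti-epileptic replicate 2. RT replicate 1 also held 69.8% of the summed CPM of member 95 (2069212 to 2083018) and 52.5% of that of member 96 (2086324 to 2107124), neighbours in the quiet window 7 that did not pass the filter on low counts. They had 94 of 138 and 38 of 74 counts there. In the fit without that filter, which called 0.826% of all genes for RT, both were called higher (6.46 and 6.06, edgeR adjusted p 0.0351 and 0.00322). With a smaller RT group the filter asked for fewer libraries, and without RT replicate 2 or 3 it kept 97 members, members 95 and 96 among them. Both were called in these fits (0.636% and 1.01% of all genes). These fits still hold RT replicate 1, so they add no separate support. Without RT replicate 1, 0 members were called (0.0415%). Both members were singled out after their values were seen.

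Breed was asked because MHC alleles differ between breeds and the reference is a Boxer. The labels give 7 Boxers, 7 Labrador Retrievers, 6 Australian Shepherds and 5 Golden Retrievers, each compared with all other dogs with treatment group in the fit. For Boxers 0 of 92 members were called (0% of all genes). An unadjusted p under 0.05 was reached by 3 (3.26%, against 7.42% of all genes). The median log2 fold change of members was 0.00 and that of all genes -0.08, and for the 75 deeper members the values ran from -1.30 to 0.64. Of these 75 members, 73 lay within 2 SE of 0. Of the windows in Boxers, window 8 departed most from 0, with 0 of its 6 tested members positive and a median log2 fold change of -0.57. This was seen after the fit and was not tested for the window. It was not particular to Boxers. Window 8 had 0 of 6 positive and -0.58 for the anti-epileptic, 2 of 6 and -0.44 for the steroid, and 3 of 6 and -0.03 for RT. Of its members, 3 belong to the distal group and vary together, so the 6 signs are not separate. Steroid replicate 2, with the lowest score of the distal group (-2.78), is a Boxer. For Australian Shepherds 0 members were called (0% of all genes) and 0 had an unadjusted p under 0.05, against 2.62% of all genes. For Golden Retrievers 0 were called (0.0163%) and 2 had one (2.17%, against 4.13% of all genes). DESeq2 and limma voom called 0 members in these 3 breeds. DESeq2 called 0.136% of all genes for Boxers, 0.0762% for Australian Shepherds and 0.196% for Golden Retrievers, and limma voom 0.0109%, 0% and 0.0109%.

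For Labrador Retrievers 4 members (4.35%, against 2.99% of all genes) had an unadjusted p under 0.05. Of the members 1 was called, member 78 (0.0653% of all genes were called). Its log2 fold change was 4.86 ± 0.805 (edgeR adjusted p 0.000518). The value rests on untreated replicate 22, a Labrador Retriever with 2364 counts or 560 CPM, while the next library had 10.9 CPM and the largest count elsewhere was 46. Without that dog the log2 fold change was -0.08 (adjusted p 0.999), and limma voom, which called 0.0381% of all genes, did not call it (adjusted p 0.813). DESeq2, which called 0.0272%, did (4.89, adjusted p 2.58e-05). Member 78 shares 12.7% of its exon bases with member 79 on the opposite strand.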

How the data were processed

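Raw counts of 62 libraries, 1 per dog, were deposited as 1 table. Per the file headers, counting was done by the authors with featureCounts 2.0.4 on exons of the Ensembl release 100 annotation of CanFam3.1. It took primary alignments only, counted each read of a pair and set no strand option. The primary alignment of a read that maps to several places is then counted at 1 of them, so similar MHC copies are uncertain. STAR and DESeq2 appear in the submitters' processing notes, versions not given in the sources used here. Exon length came from another deposited column. The members and lists were chosen with earlier results of these data known.

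Groups came from the treatment label. Replicate numbers follow accession order and do not pair dogs. Of 1891 pairs of libraries, the most alike had a chi-square of 11.8 per gene, and 0 were identical. The table was filtered by filterByExpr, scaled by TMM and fitted with edgeR 4.0.16 in R 4.3.3, in 1 model of 6 treatment groups with sex and neuter status as covariates, plus a breed term for breeds. P-values were adjusted by Benjamini-Hochberg over 18370 genes. Log2 CPM had a prior count of 2. Alternatives were DESeq2 1.42.0, limma 3.58.1 (voom, quality weights), and other scaling, filter, covariates and samples. Tests were tried on simulated counts with 200 genes changed by 2 on the log2 scale. For surgery 181 of them were recovered with 26 false calls, for the steroid 159 with 13 and for RT 112 with 7. Identifiers are printed for at most 2 members per direction and comparison (adjusted p under 0.05, mean log2 CPM at or above 1, largest fold change), the 2 highest per window and the 3 with the largest SD (mean log2 CPM at or above 2), and the text says why any other is named. Python 3.11.15 with pandas 2.3.3 and numpy 2.4.6 gave the descriptions.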

Additional observations from a re-analysis of the deposited data

Results flagged for a closer look

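In steroid replicate 5, 3 members lay far above the other 6 steroid libraries. Member 14 had 7.43 log2 CPM where the next library had 6.31, member 22 had 8.21 where the next had 6.29, and member 80 had 8.76 where the next had 7.76. This library also had the largest total of the series, 12063982 counts, and 46.7% of them were mitochondrial. Each of 35 measures was looked at in the steroid and the SxRT group, 70 looks in all, and chance marks about 1 in 20 such groups.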

How the results depend on the processing

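No paired analysis was possible because each library comes from a different dog with 1 treatment label. In surgery against untreated, 18 members were called (16.8% of all genes), 5 with the even share (4%) and 3 with the first component as covariate (1.56%), 0 within names numbered 11 to 16 (0%) and 2 within 17 to 22 (0.364%); the cause was not tested, beyond the fewer dogs of the last fits. In the other fits the count stayed within 1.5 times, and over 49 fits without 1 library it was 15 to 21. Signs turned for member 19 within names 11 to 16 (-0.0383), for members 37 (0.52) and 82 (0.33) with the first component, for member 68 with DESeq2 (0.46), within names 17 to 22 (0.96) and without untreated replicate 12 (its 49 fits without 1 library ran from -4.26 to 0.30), and for member 78 in Labrador Retrievers without untreated replicate 22 (its fits without 1 dog ran from -0.0847 to 5.20). For steroid, 2 members were called with DESeq2, 1 with limma voom and 1 without the filter (0.578% of all genes), and 0 in each fit without 1 library. For RT, 2 were called without the filter (members 95 and 96), and 0 to 2 over the fits without 1 library. For Labrador Retrievers 0 were called with limma voom and 0 to 1 without 1 dog. The fits leaving out dogs of the surgical and untreated groups, and the libraries past gaps on the first component, were chosen after seeing the data. The median pair correlation of 0.122 was 0.105 with Spearman and 0.083 with the first component taken out. Depth limits the 22 members not tested and those with under 150 counts in all.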
